A study of Mus musculus with 8 samples.

Results

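The miRNAs of the imprinted Dlk1-Dio3 domain were examined in mouse embryonic fibroblasts exposed to neocarzinostatin (NCS), a drug that breaks both strands of DNA as ionizing radiation does. Members were the miRNAs whose name on a deposited comparison sheet carried 1 of 47 numbers assigned to this locus, with star strands left out. They came to 45 of the 342 miRNA names on the sheets, measured by 46 of 346 probes because miR-431 had 2 probes, and 38 of the 47 numbers had a probe. The study used 8 single-colour arrays: ATM+/+ and ATM-/- fibroblasts of littermates were each harvested 0, 4, 8 and 24 h after NCS addition, and a single array was run for every combination. ATM is the kinase that signals double-strand breaks, and the comparison asks whether miRNA changes after such breaks differ when it is missing. The ATM-/- cells carried the deletion at every time, including 0 h, and all cells were grown in fetal calf serum medium. The dose of NCS, the number of embryos behind each genotype and the passage of the cells are not stated in the sources used. Without replicate arrays no p-value was computed, and a spread is the SD over the 3 treated times, which share 1 0 h array and are not replicates.

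The Dlk1-Dio3 domain is expressed by parent of origin. The protein-coding genes Dlk1, Rtl1 and Dio3 are read from the paternal chromosome, while Meg3, the transcript opposite Rtl1, Rian and Mirg are read from the maternal chromosome and carry the miRNAs. A miRNA pairs with messenger RNAs mainly through its seed, bases 2 to 8, and lowers their translation or stability. In the mouse the cluster is active in the embryo, the placenta and the brain. Several members opposite Rtl1, among them miR-127, miR-136, miR-431, miR-433 and miR-434, direct cleavage of the Rtl1 messenger RNA. The miRNAs from miR-379 to miR-410 are induced by neuronal activity in rodent neurons.

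Older names without an arm were matched to the arm that later nomenclature gives them, and 40 of the 45 names then had a mature sequence in RefSeq for GRCm38.p6. Of these, 12 matched by the exact name and 28 through the added arm. No sequence is shown for miR-299, miR-376c, miR-485, miR-487b and miR-496. The hairpins of all members lay on the plus strand of chromosome 12, from chr12:109563692-109563785 for Mir770 to chr12:109743715-109743795 for Mir410, with 180 kb between the first and the last start. In that annotation 1 hairpin overlapped Meg3, 9 overlapped Rtl1, 3 overlapped Rian and 6 overlapped Mirg. All 40 seeds were different, so the members formed no family with 1 common seed. The sequences below run 5′ to 3′ and the capitals mark the seed. The first 6 belong to the members whose response was at least 2-fold higher in ATM+/+ cells than in ATM-/- cells.
miR-337-3p: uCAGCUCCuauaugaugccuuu
miR-376a: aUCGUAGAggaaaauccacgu
miR-379: uGGUAGACuauggaacguagg
miR-382: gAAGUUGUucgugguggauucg
miR-410: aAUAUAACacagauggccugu
miR-495: aAACAAACauggugcacuucuu
The next set is shown because its probes had the highest mean intensities, and because miR-494 was also the member with the lowest mean response in ATM+/+ cells.
miR-127: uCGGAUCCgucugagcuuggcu
miR-134: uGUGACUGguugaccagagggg
miR-541: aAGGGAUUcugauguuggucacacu
miR-665: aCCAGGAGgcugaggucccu
miR-494: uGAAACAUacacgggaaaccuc
The following 3 were the members with sequence that stood highest or, in the case of miR-409-3p, below 0 h in every sheet of ATM-/- cells.
miR-1188: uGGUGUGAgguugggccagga
miR-370: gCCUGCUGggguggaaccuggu
miR-409-3p: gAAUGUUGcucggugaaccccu
The last pair are near copies of members in the first set, meaning here that their seeds differ by 1 base.
miR-376b: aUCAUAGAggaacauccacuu
miR-411: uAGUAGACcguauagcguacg
The mature miR-379 lies at chr12:109709065-109709085, miR-495 at chr12:109718795-109718816 and miR-410 at chr12:109743764-109743784, all on the plus strand. The seeds of miR-376a and miR-376b differed by 1 base, G4A, with positions counted from 1 at the 5′ end and miR-376a given first, and 3 of their 21 bases differed in all. The seeds of miR-379 and miR-411 differed by G2A, and 7 of 21 bases differed in all. Another near pair, miR-300 and miR-381, differed by G4A in the seed and by 3 of 22 bases in all. Whether a probe of one near copy also captures the other was not tested. Likeness outside the seed was not searched, and miR-495 and miR-543, which share their 3′ part, are not among these pairs.

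The deposited sheets listed 298 to 313 probes for ATM+/+ cells and 126 to 185 for ATM-/- cells, and deposited intensities at the 10th percentile of listed probes were 16.9 to 32.9. A probe missing from a sheet has no intensity there, and the listing rule is not stated in the sources used. All 7 fibroblast marker miRNAs were listed in both genotypes, with geometric mean intensities of 565 to 2511 in ATM+/+ cells and 20.9 to 1002 in ATM-/- cells. Their summed intensity was 6368 to 12051 over the ATM+/+ arrays and 2062 to 3019 over the ATM-/- arrays, and miR-21 stood at 29.1 and the probe of miR-199a-3p at 20.9 in ATM-/- cells, within the lowest listed signals. Of the other marker lists, 4 pluripotency miRNAs, 3 epithelial, 3 blood, 4 muscle, 2 neural and 1 endothelial were listed in ATM+/+ cells, the strongest being miR-141 at 268. For the ATM-/- arrays the counts were 2, 1, 1, 4, 0 and 0, and the liver markers were listed in neither. The part of these differences in the results below was not tested. The messenger RNA of Atm is not measured on miRNA arrays, so the genotype labels could not be checked by it. Per the deposited slide lists, the 0 and 4 h arrays of a genotype shared a slide, and the 8 and 24 h arrays shared another, so the ratios of 4 h to 0 h and of 24 h to 8 h are those within a slide.

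In ATM+/+ cells 45 of the 46 member probes were listed on at least 1 sheet, and 34 on all 3. The exception was miR-412. For ATM-/- cells 25 were listed at least once and 15 on all 3. These shares, 97.8% and 54.3%, lie close to those of all sheet probes, 97.7% and 56.1%, so the cluster was listed about as often as sheet probes in general in both genotypes. All 6 sheets listed 14 members out of 120 probes.

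Listing in ATM-/- cells varied with base composition. Among member probes with a sequence, 17 of the 20 with a GC content above 50% were listed on an ATM-/- sheet (85.0%), against 7 of the 21 at or under 50% (33.3%). Among the other probes whose name matched a sequence exactly, the same shares were 36 of 49 (73.5%) and 16 of 25 (64.0%). In ATM+/+ cells 19 of the 20 and 21 of the 21 members were listed. GC-rich members listed in ATM-/- cells included miR-665 (65.0%), miR-370 (68.2%) and miR-1188 (61.9%). The AT-rich members absent from the ATM-/- sheets included miR-410 (38.1%), miR-495 (36.4%) and miR-337-3p (40.9%). The part of labelling and hybridization in this split was not tested.

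Responses were taken from the deposited ratio table, in which each array is divided by the 0 h array of its genotype. It holds 39 of the member probes. The other 7, for miR-337-5p, miR-409-5p, miR-434-5p, miR-540-5p, miR-673-3p, miR-770-3p and the second probe of miR-431, have values on the sheets alone.

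In ATM+/+ cells the cluster stood moderately above its 0 h level. In bulk RNA a miRNA present in fewer cells and one present at less per cell cannot be told apart. The median log2 ratio over the 39 member probes was 0.20 at 4 h, 0.25 at 8 h and 0.30 at 24 h, against 0.03, 0.23 and -0.12 over all probes of the table. The mean over times had a median of 0.24, against 0.01 over all probes and 0.15 over the 233 other named probes. From the sheets the members' median was 0.15. On the 24 h array the ratio table lay above the sheets by a median of 0.31 for members and 0.34 for all probes present in both. The course of the members' median up to 24 h therefore depends on which values are used. At all 3 times 19 members (48.7%) were above 0 h, where 33.6% of all probes were, and 3 members were below at all 3, where 25.8% of all probes were. These 3 were miR-329, miR-494 and miR-679. A mean change of at least 2-fold was rare. It was reached upward by miR-410 and miR-495, 5.13% of members against 6.03% of all probes, and downward by miR-494, 2.56% against 7.19%. In the authors' deposited table the mean of miR-410 was 0.89, under 2-fold, and that of miR-495 was 1.12. Among the 233 other named probes, 108 (46.4%) were above 0 h at all 3 times, so the members' upward share was near that of named miRNAs in general. Being below at all 3 times applied to 33.5% of the other named probes, and a 2-fold decrease to 12.4%.

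**Figure D1:**
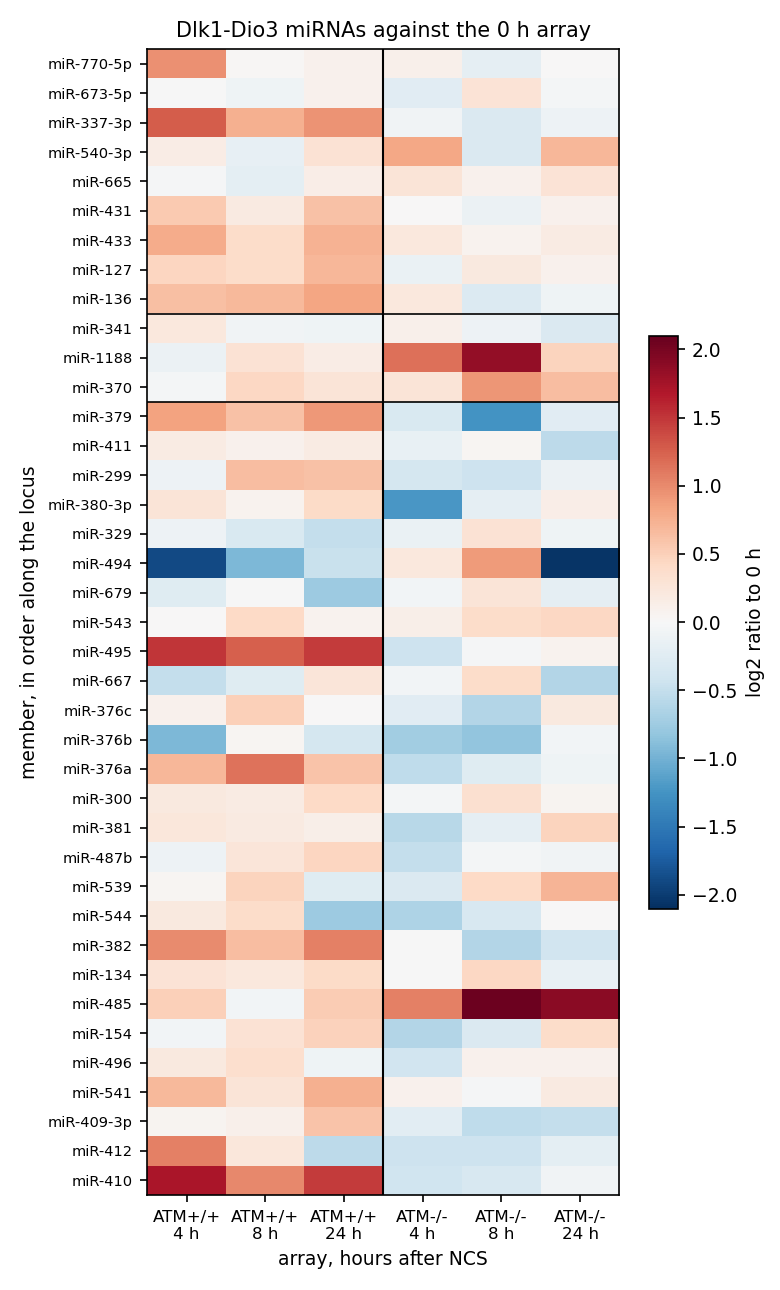
Log2 ratio (colour) against the genotype's own 0 h array for 39 member probes (rows, in order along chromosome 12) in the 6 treated arrays (columns), with horizontal lines between the Meg3 and Rtl1 segment, the Rian segment and the miR-379 to miR-410 segment. The rows of miR-495, miR-410, miR-337-3p, miR-382 and miR-379 are red at all 3 times in ATM+/+ cells and mostly blue in ATM-/- cells, while miR-485 and miR-1188 are red in ATM-/- cells.

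The 5 members with the highest mean response in ATM+/+ cells lay in the miR-379 to miR-410 segment, apart from miR-337-3p. That segment holds 27 of the 39 member probes of the ratio table. The log2 ratios of miR-495 were 1.5, 1.26 and 1.46 at 4, 8 and 24 h (mean 1.41 ± 0.13, SD over 3 times), and its intensity was 26.5 at 0 h and 67.3, 55.5 and 51.4 afterwards. For miR-410 the log2 ratios were 1.72, 1.01 and 1.46 (mean 1.40 ± 0.36), and the intensities 21.5 at 0 h and 52.9, 32.5 and 36.9 afterwards. At 8 h the spots of miR-410 varied by 43.8% of their mean, and the authors' deposited table gave 0.59 with p = 0.299. Both miR-495 and miR-410 were dim at 0 h, within the lowest signals listed, and higher on all 3 treated arrays. The 3′ arm miRNA miR-337-3p, opposite Rtl1, followed with 1.27, 0.74 and 0.94 (mean 0.98 ± 0.27) and intensities of 23.3 at 0 h and between 49.6 and 61.7 on the treated arrays. Its 0 h spots varied by 59.1% of their mean, so its starting level was poorly measured. The 5′ arm, miR-337-5p, had intensities of 24.7, 24.9, 50.1 and 38.6, higher than at 0 h at 8 and 24 h and nearly level at 4 h.

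The next members had higher intensities and smaller ratios. The log2 ratios of miR-382 were 0.99, 0.64 and 1.06 (mean 0.90 ± 0.23), with intensities of 108, 163, 128 and 151 over the 4 arrays. Those of miR-376a, whose precursors are known substrates of adenosine-to-inosine editing, were 0.70, 1.14 and 0.60 (mean 0.82 ± 0.28), with intensities of 56.5, 96.3, 109 and 71.2. For miR-379, the first miRNA of the distal segment, they were 0.85, 0.61 and 0.92 (mean 0.79 ± 0.16), with intensities of 78.4, 141, 114 and 120. In each of these members the lowest treated array lay above the 0 h array.

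Near copies did not move alike. While miR-376a was above 0 h on every treated ATM+/+ array, the log2 ratios of miR-376b were -0.94, 0.04 and -0.38 (mean -0.43 ± 0.49), with intensities of 65.0 at 0 h and 29.9, 61.1 and 40.0 afterwards. Likewise miR-411 stood at 0.18, 0.08 and 0.18 (mean 0.15 ± 0.05), below its near copy miR-379 at each time. These differences were not tested.

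In the ratio table the members opposite Rtl1 were in part above 0 h at every time and in part near 0. For miR-127, which guides cleavage of Rtl1 messenger RNA, the log2 ratios were 0.44, 0.39 and 0.70 (mean 0.51 ± 0.16) and the intensities 247, 324, 290 and 324. For miR-136 the mean was 0.71 ± 0.10, for miR-433 it was 0.63 ± 0.21 and for miR-431 it was 0.45 ± 0.23, all above 0 h at each time. In the same segment the means were 0.09 ± 0.24 for miR-540-3p, -0.01 ± 0.09 for miR-673-5p and -0.03 ± 0.17 for miR-665. In the authors' deposited table miR-673-5p stood lower, at -0.39, -0.24 and -0.63, with p = 0.0611, p = 0.228 and p = 0.0321. For miR-770-5p, in Meg3, the ratio table gave 0.96, 0.03 and 0.10. The authors' deposited table gave miR-770-5p 0.19, -0.63 and -1.04, so its direction at 8 and 24 h depends on the values used. The second probe of miR-431, outside the ratio table, gave 0.39, 0.10 and -0.01 on the log2 scale in the authors' deposited table, against 0.49, 0.11 and 0.31 there for the first. On the sheets both probes were thus highest at 4 h, and at 24 h the 2 probes stood on different sides of 0. In the ratio table the first probe was highest at 24 h, with 0.61 against 0.56 at 4 h.

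Members below 0 h in ATM+/+ cells were led by miR-494. Its log2 ratios were -1.89, -0.94 and -0.47 (mean -1.10 ± 0.72), and its intensity of 984 at 0 h, the highest of any member, was followed by 273, 490 and 556. It was thus lowest at 4 h, and all 3 treated arrays stayed below 0 h. The authors' deposited table gave p = 0.0001 at 4 h, p = 0.000716 at 8 h and p = 0.000965 at 24 h for miR-494. The next lowest mean was that of miR-376b, given above. In the authors' deposited table miR-376b had log2 ratios of -1.12, -0.09 and -0.70, with p = 0.00164, p = 0.430 and p = 0.00356. The remaining low members of the ratio table were weak or changed little. For miR-679 the log2 ratios were -0.25, -0.01 and -0.76 (mean -0.34 ± 0.38), with intensities of 19.1 at 0 h and 23.6 at 4 h and no listing later. At 4 h its ratio thus stood below 0 while its sheet intensity stood above that of 0 h. The log2 ratios of miR-329 were -0.10, -0.32 and -0.49 (mean -0.31 ± 0.20), with intensities of 26.5 at 0 h and 24.6 at 8 h. For miR-667, a bright member, they were -0.49, -0.25 and 0.25 (mean -0.16 ± 0.38), with intensities of 195, 140, 146 and 181, so its ratio at 24 h stood above 0 while its sheet intensity did not.

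The other named probes had high intensities and smaller ratios. The intensities of miR-665 were 297, 279, 242 and 280, and its log2 ratios -0.03, -0.20 and 0.14 (mean -0.03 ± 0.17). Those of miR-134, which in rat hippocampal neurons limits dendritic spine size, were 126, 155, 141 and 141, with log2 ratios of 0.29, 0.23 and 0.40 (mean 0.30 ± 0.09). For miR-541 the intensities were 197, 289, 226 and 271 and the log2 ratios 0.69, 0.28 and 0.74 (mean 0.57 ± 0.25). Of these 3, only miR-665 changed sign over time.

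In ATM-/- cells the ratio table means of these bright members lay between 0.05 and 0.21. There the intensities of miR-665 were 211, 263, 364 and 261, and its log2 ratios 0.26, 0.08 and 0.29 (mean 0.21 ± 0.11). For miR-127 the intensities were 183, 171, 149 and 184, and the log2 ratios -0.14, 0.20 and 0.10 (mean 0.05 ± 0.17). For miR-134 they were 137, 139, 125 and 144, with log2 ratios of -0.01, 0.43 and -0.15 (mean 0.09 ± 0.31). For miR-541 the intensities were 114, 126.7, 75.6 and 126, and the log2 ratios 0.10, -0.03 and 0.19 (mean 0.09 ± 0.11). The authors' deposited table gave miR-541 a log2 ratio of -0.60 at 8 h with p = 0.00233, and miR-665 one of 0.79 with p = 0.246. The 8 h spots of miR-665 varied by 53.1% of their mean. Of these 4, only miR-665 lay above 0 h at all 3 times in the ratio table.

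The authors' deposited table carries a p-value for each probe and sheet, from a test that the sources used here do not describe and that compares the spots of 2 arrays. In the authors' deposited table for ATM+/+ cells at 4 h, 13 of 38 listed members were higher at a p below 0.05, where 33.1% of all listed probes were, and 4 were lower, where 27% were. At 8 h the authors' deposited table had 8 of 38 members higher, against 27.2% of all probes, and 3 lower, against 29.2%. At 24 h it had 8 of 40 members higher, against 24.6% in the authors' deposited table as a whole, and 8 lower, against 36.1%. The members' share of increases was near the background at each time, and their share of decreases was below it. By the authors' deposited table, miR-127, miR-136, miR-337-3p, miR-379 and miR-495 were higher at a p below 0.05 at all 3 times, and miR-409-5p, miR-494 and miR-667 were lower. These are 5 of 34 members (14.7%) against 20.4% of all probes on the 3 sheets of the authors' deposited table, and 3 of 34 (8.82%) against 26.1%, both below the background. The sheet log2 ratios of miR-409-5p, which has no row in the ratio table, were -0.62, -0.15 and -1.34 in the authors' deposited table, while its other arm, miR-409-3p, stood at 0.47, 0.21 and 0.45 there.

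In ATM-/- cells the cluster as a whole stayed near its 0 h level and a few members moved. The median log2 ratio of the 39 member probes was -0.14 at 4 h, -0.04 at 8 h and 0.00 at 24 h, against -0.23, 0.03 and 0.00 over all probes. The mean over times had a median of -0.10, against -0.06 over all probes. At all 3 times 6 members (15.4%) were above 0 h, where 14.4% of all probes were, and 10 (25.6%) were below, where 19.5% were. The 6 were miR-370, miR-433, miR-485, miR-543, miR-665 and miR-1188. A mean at least 2-fold above 0 h was reached by miR-485 and miR-1188, against 0.928% of all probes, which amounts to 4 probes in all. No member was 2-fold lower, where 0.232% of all probes were.

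The authors' sheets gave smaller values for both of the members that passed 2-fold. The log2 ratios of miR-485 in the ratio table were 1.06, 2.07 and 1.90 (mean 1.68 ± 0.54), and its intensities 58.0, 73.8, 106 and 131, so each array stood above the one before. In the authors' deposited table the same log2 ratios were 0.35, 0.87 and 1.18, with p = 0.444, p = 0.0631 and p = 0.0259. The 0 h spots of miR-485 varied by 54.6% of their mean. For miR-1188, in the Rian segment, the ratio table gave 1.16, 1.84 and 0.46 (mean 1.16 ± 0.69), and the intensities were 23.2 at 0 h, 40.7 at 4 h and 44.3 at 8 h, with no listing at 24 h. The authors' deposited table gave miR-1188 log2 ratios of 0.81 with p = 0.00906 at 4 h and 0.93 with p = 0.0318 at 8 h. Averaged over the listed times, neither miRNA reached 2-fold on the sheets.

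Other members high in ATM-/- cells changed by less than 2-fold. The neighbour of miR-1188 in Rian, miR-370, which in human liver cells represses the fatty acid oxidation enzyme CPT1A, had log2 ratios of 0.26, 0.93 and 0.65 (mean 0.62 ± 0.34). Its intensities were 52.2, 60.9, 68.6 and 86.9, each above the one before. For miR-540-3p the log2 ratios were 0.81, -0.30 and 0.70 (mean 0.40 ± 0.61), with intensities of 30.2, 46.7 and 49.4 at 0, 4 and 24 h. For miR-543 they were 0.12, 0.39 and 0.43 (mean 0.32 ± 0.17), and it was on no ATM-/- sheet.

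Of the 5 members with the lowest ATM-/- responses, 3 were on no ATM-/- sheet. The log2 ratios of miR-379 were -0.32, -1.25 and -0.23 (mean -0.60 ± 0.56), and those of miR-380-3p were -1.22, -0.18 and 0.14 (mean -0.42 ± 0.71). For miR-376b they were -0.74, -0.84 and -0.06 (mean -0.54 ± 0.42). None of these 3 had an ATM-/- intensity. For miR-412 they were -0.43, -0.43 and -0.20 (mean -0.36 ± 0.13), with intensities of 28.6 at 0 h and 21.7 at 4 h. The one listed on all 3 ATM-/- sheets was miR-409-3p, with log2 ratios of -0.22, -0.54 and -0.49 (mean -0.42 ± 0.17) and intensities of 62.1 at 0 h and 34.1, 26.2 and 38.7 afterwards. In the authors' deposited table miR-409-3p was the member lower at all 3 times in ATM-/- cells, with p = 0.0140, p = 0.00648 and p = 0.0174. It was 1 of 15 such members (6.67%), against 3.25% of all probes in the authors' deposited table.

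In the ATM-/- cells at 4 h, 2 of 23 listed members were higher at a p below 0.05 in the authors' deposited table, against 20% of all listed probes, and 1 was lower, against 6.49%. At 8 h the authors' deposited table had 1 of 20 members higher, against 17.5%, and 6 lower, against 20.8%. At 24 h it had 3 of 16 higher, against 16.7% of all probes in the authors' deposited table, and 3 lower, against 27%. The sheet at 8 h and the ratio table differed by an offset: the 17 members present in both had a median excess of 0.57 (log2) in the table, and for 11 of 17 the sign was shared. As an example, miR-127 at 8 h stood at 0.20 in the ratio table and at -0.29 in the authors' deposited table. For the 6 whose sign differed, the direction at 8 h in ATM-/- cells is not settled by these files. For members the offset was 0.31 on the ATM+/+ 24 h array and under 0.1 on the other 4 arrays.

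The responses of the genotypes differed in both directions among the members. The ATM+/+ log2 ratio minus the ATM-/- log2 ratio had a median over members of 0.35 at 4 h, 0.27 at 8 h and 0.26 at 24 h, against 0.33, 0.28 and -0.09 over all probes. Over the other named probes the medians were 0.30, 0.09 and 0.19, so where the members stood above the background depended on the probes taken as background. The mean difference over times was at least 2-fold in favour of ATM+/+ cells for 6 members (15.4%), against 9.98% of all probes and 14.6% of the other named probes, and in favour of ATM-/- cells for 2 members, against 8.82% and 15%. At all 3 times 19 members (48.7%) were higher in ATM+/+ cells, against 32.3% of all and 41.6% of other named probes, and 5 were lower, against 19.3% and 26.6%. The 5 were miR-370, miR-485, miR-665, miR-679 and miR-1188.

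Among the 6, miR-410 had a mean difference of 1.67 ± 0.41, miR-495 of 1.54 ± 0.35 and miR-379 of 1.40 ± 0.41 (SD over 3 times). The values were 1.24 ± 0.23 for miR-382, 1.14 ± 0.17 for miR-337-3p and 1.11 ± 0.37 for miR-376a. Only miR-382 of these had ATM-/- intensities, which were 39.3, 47.1, 17.3 and 38.3 over the 4 arrays. Its ATM-/- ratio table values were -0.01, -0.62 and -0.40. From the sheets the mean difference of miR-382 was 0.76, under 2-fold. Its ATM-/- spots varied by 42.9% of their mean at 0 h and by 44.1% at 8 h. For the remaining 5 the ATM-/- side of the difference rests on probes that no ATM-/- sheet lists. In 6 members (15.4%) every treated ATM+/+ array lay above 0 h and every treated ATM-/- array below, against 5.8% of all probes and 7.3% of the other named ones. At the other end, miR-485 had a mean difference of -1.35 ± 0.78, miR-1188 of -1.05 ± 0.65 and miR-370 of -0.40 ± 0.10. The difference of miR-494 was -0.79 ± 2.06, because its ATM-/- log2 ratios were 0.21, 0.90 and -2.06, and its sign turned between times. Its ATM-/- intensities were 113, 111, 126.9 and 32.7, so its lowest array was that of 4 h in ATM+/+ cells and that of 24 h in ATM-/- cells.

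**Figure D2:**
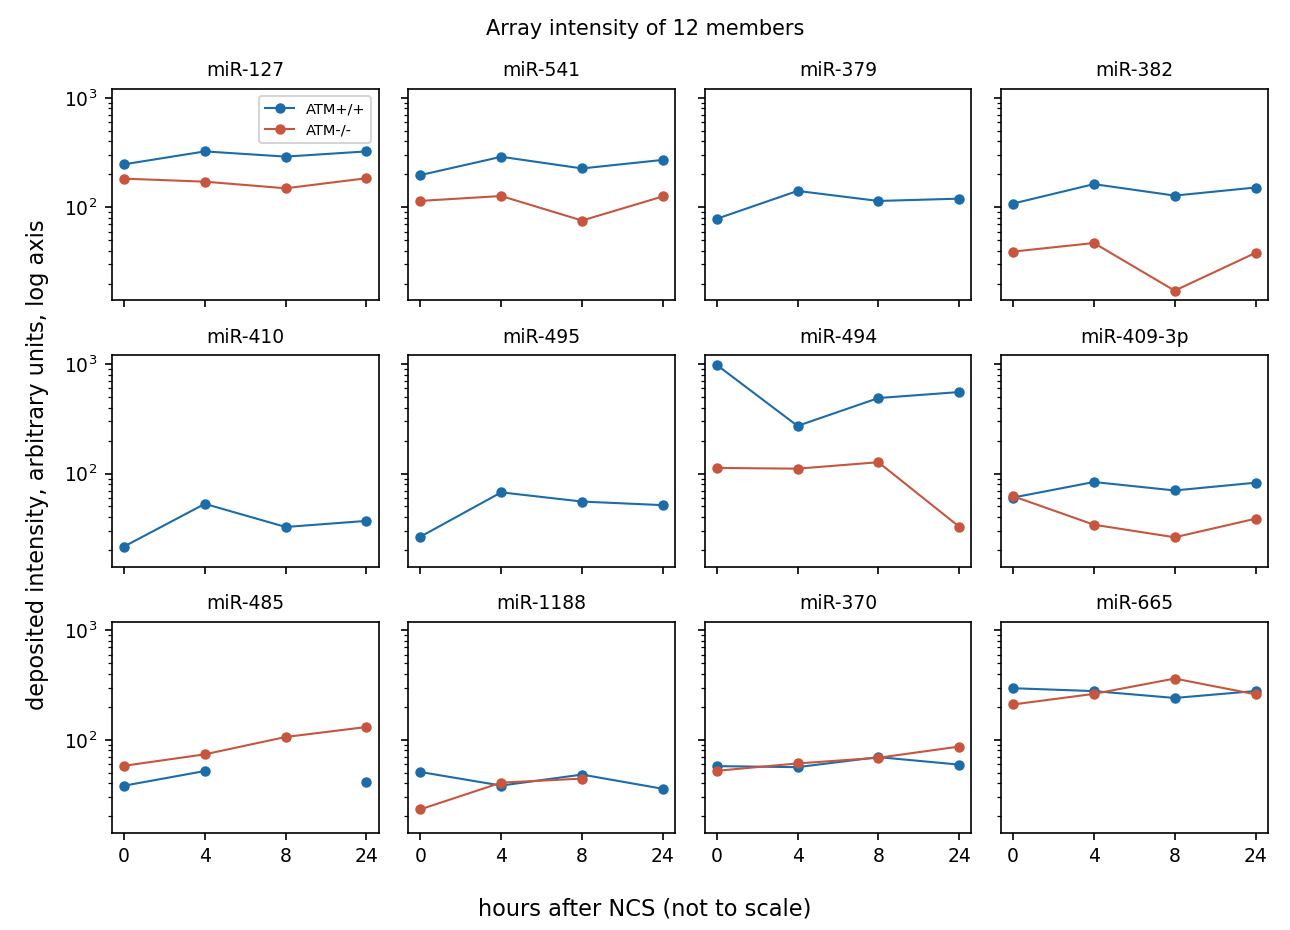
Deposited intensity (log axis, arbitrary units, sheets of a genotype brought to 1 scale) of 12 members at 0, 4, 8 and 24 h in ATM+/+ cells (blue) and ATM-/- cells (red), 1 array per point. Missing points are arrays whose sheet did not list the probe: miR-379, miR-410 and miR-495 have no ATM-/- points, and miR-494 stands at 984 at 0 h and 273 at 4 h in ATM+/+ cells.

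Levels of the genotypes were comparable only loosely, because the sheets of each genotype were scaled apart. Over the 14 members on all 6 sheets, the median of ATM+/+ minus ATM-/- log2 intensity was 0.60 with the sheets as aligned (0.69 over all 120 shared probes). It was -0.42 with each array centred on its median (-0.33 over all), -0.34 after quantile normalization (-0.30 over all) and -0.68 when scaled to the 75th percentile (-0.59 over all). The direction for the cluster therefore turned with the scaling and is not given. Under all 4 scalings miR-494 and miR-382 were higher in ATM+/+ cells at each of the 4 times. Their mean differences ranged from 1.33 to 2.62 for miR-494 and from 0.75 to 2.03 for miR-382.

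Bright and dim members were separated at the median geometric mean intensity of all listed probes, 57.7 in ATM+/+ cells and 53.9 in ATM-/- cells. The intensity of a probe depends on its own binding as well as on the amount of its miRNA, so bright and dim describe signal and not abundance. By this split 19 member probes were bright and 26 dim in ATM+/+ cells, and 12 were bright and 13 dim in ATM-/- cells. Bright in both were 11 probes, those of miR-127, miR-134, miR-300, miR-370, miR-431 (both probes), miR-433, miR-494, miR-541, miR-665 and miR-667. Bright in ATM+/+ cells and on no ATM-/- sheet were 4, those of miR-376a, miR-379, miR-411 and miR-434-5p. Another 17 were dim in ATM+/+ cells and unlisted in ATM-/- cells.

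In ATM+/+ cells the 17 bright members of the ratio table had a median mean response of 0.30, with 12 above 0 h at all 3 times and 1 below. The 21 dim members had a median of 0.17, with 7 above and 2 below. The difference of 0.14 was smaller than the median SD over times of a single member, 0.23 for bright and 0.27 for dim members. Among the other named probes the same split gave 0.38 for bright and -0.06 for dim probes, a difference of 0.44. Bright members thus did not stand above bright probes in general, whereas the median of dim members was higher than that of other dim probes. Both members above 2-fold, miR-410 and miR-495, were dim, and the 1 below, miR-494, was bright.

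Bright and dim members stood farthest apart at 24 h. On the ATM+/+ arrays the bright members had medians of 0.29 (4 h), 0.28 (8 h) and 0.60 (24 h), while the dim members had 0.15, 0.25 and 0.10. Other named probes had a like gap at 24 h, with 0.42 for bright and -0.04 for dim ones. In the authors' deposited table the members' medians were 0.39, 0.20 and 0.31 for bright and 0.31, 0.14 and -0.09 for listed dim ones, so the 24 h value of bright members was not the highest there. Among ATM-/- values, 11 bright members had a median of 0.09, 10 dim members of -0.07 and 18 unlisted members of -0.21. The same values over other named probes were 0.23, 0.00 and -0.14, so an order from bright to unlisted was present in both sets. Of the 10 members below 0 h at all 3 ATM-/- times, 7 were unlisted there. Spots of bright members varied by a median of 8.69% and those of dim members by 11.4% in ATM+/+ cells. The figures for ATM-/- cells were 9.46% and 23.0%. Over members, Spearman's rho between mean response and mean log2 intensity was 0.25 over 38 probes in ATM+/+ cells and 0.49 over 21 probes in ATM-/- cells, a description only, since the probes share arrays and intensity enters both measures.

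**Figure D3:**
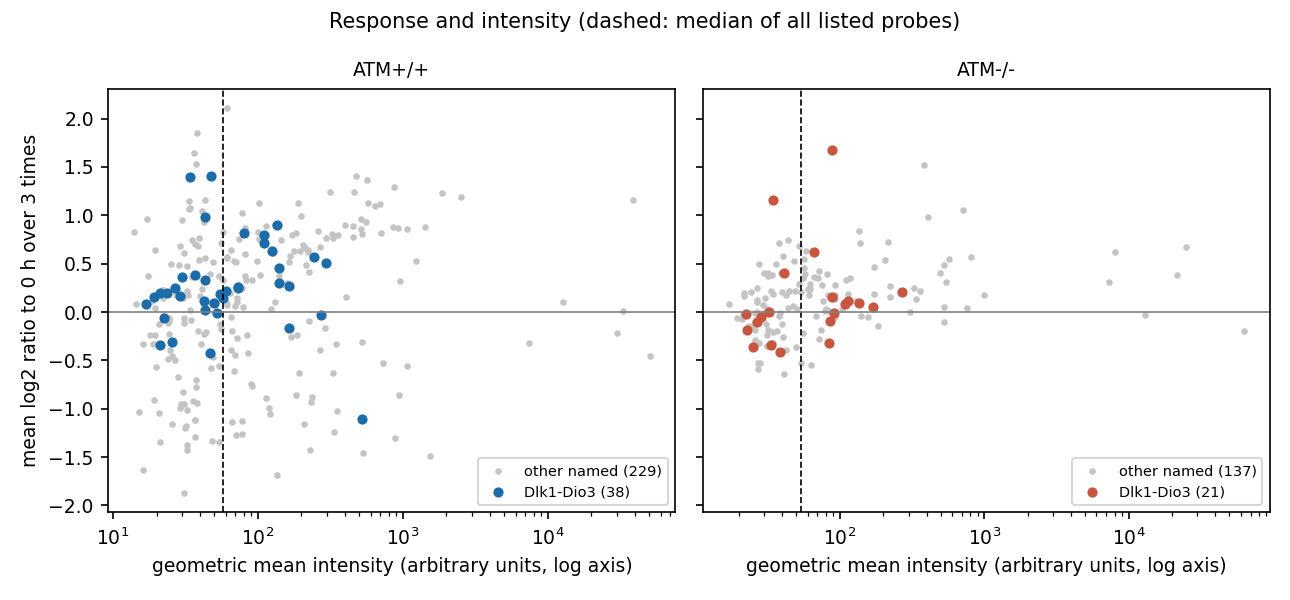
Mean log2 ratio to 0 h over 3 times against geometric mean intensity (log axis) for members (coloured) and other named probes (grey), in ATM+/+ cells (left, 38 members) and ATM-/- cells (right, 21 members), with the dashed line at the median of all listed probes. The 2 members above 1 in ATM+/+ cells lie left of the line, and the single member near -1.10 is miR-494.

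Along the locus the segments behaved unevenly. In the ratio table the 9 probes of the Meg3 and Rtl1 segment had a median mean response of 0.45 in ATM+/+ cells and 0.00 in ATM-/- cells. The sheets held 15 probes of this segment, so these medians leave out the probes on the sheets alone. The ATM+/+ sheet means of those were 0.56 for miR-337-5p, 0.16 for the second miR-431 probe and 0.14 for miR-540-5p. They were -0.10 for miR-434-5p, -0.25 for miR-770-3p and -0.47 for miR-673-3p. The order of the segments on the sheets was not tested. Between the 8 and 24 h arrays of ATM+/+ cells, which shared a slide, all 9 were higher at 24 h, with a median of 0.31, while the median over all probes was -0.19 and that over other named probes 0.08. This held in the ratio table alone: on the sheets 4 of the 9 were higher at 24 h and 5 lower, with a median of -0.01. The 3 Rian probes had a median of 0.11 in ATM+/+ cells and of 0.62 in ATM-/- cells. Among them miR-370 and miR-1188 were higher in ATM-/- cells, while miR-341 stood at 0.02 in ATM+/+ cells and -0.10 in ATM-/- cells. In the ratio table all 3 were lower at 24 h than at 8 h in both genotypes. The sheets gave the same for all 3 in ATM+/+ cells, but the 1 Rian member listed at both times in ATM-/- cells, miR-370, was higher at 24 h. The 27 ratio table probes from miR-379 to miR-410 had a median of 0.24 in ATM+/+ cells and -0.20 in ATM-/- cells. That segment, with 27 of the 39 member probes of the ratio table, held the widest range. It ran from -1.10 for miR-494 to 1.41 for miR-495, whose genes lie close together.

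**Figure D4:**
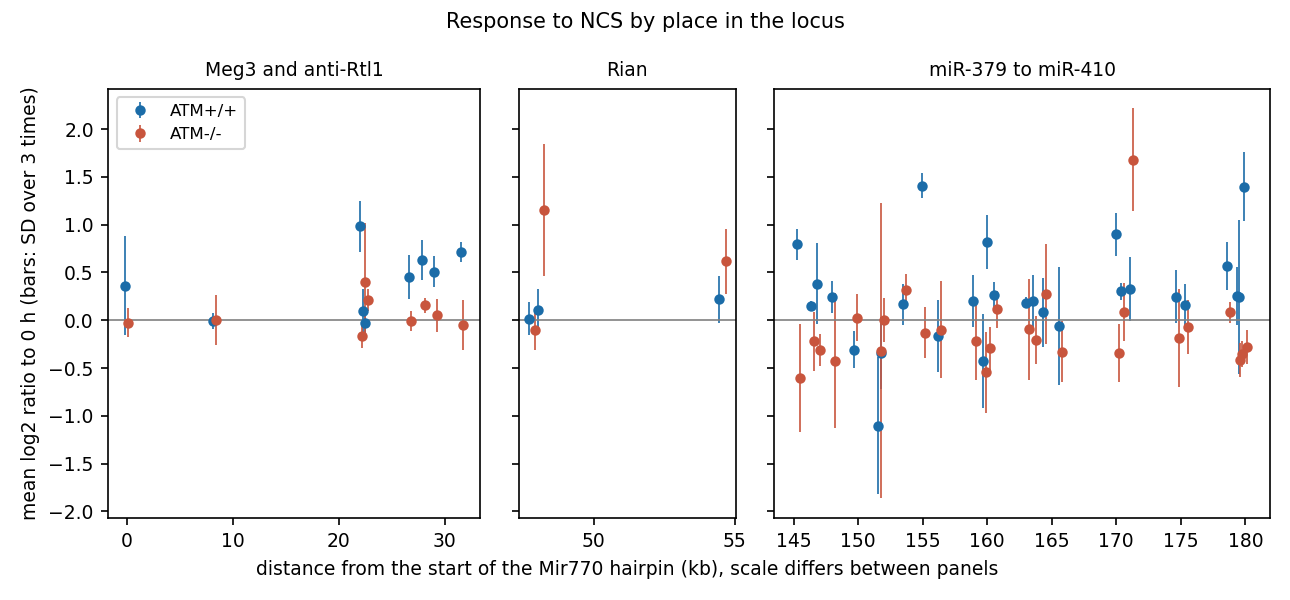
Mean log2 ratio to 0 h (points) with the SD over 3 times (bars) against the distance from the start of the Mir770 hairpin in kb, for ATM+/+ cells (blue) and ATM-/- cells (red), with 1 panel per segment and a different scale in each. ATM+/+ points of miR-337-3p, miR-495 and miR-410 stand near or above 1, and ATM-/- points of miR-1188 and miR-485 stand above 1.

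Base composition also went with the response in ATM-/- cells. Over 34 probes with a sequence, Pearson's r between GC content and mean response was -0.23 in ATM+/+ cells (Spearman's rho -0.20) and 0.44 in ATM-/- cells (rho 0.41). These are descriptions over probes that share arrays. The 15 members with a GC content above 50% had a median difference between genotypes of 0.12, and the 19 at or under 50% had 0.43. Of those 19, only 6 were on an ATM-/- sheet, against 14 of the 15, so base composition and listing cannot be told apart here.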

How the data were processed

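Mature miRNAs were measured on 8 single-colour arrays, 1 per genotype and time, grouped by the labels; the members and lists were chosen with earlier results of these data known. The authors deposited a table of ratios, each treated array relative to 0 h of the same genotype, and 6 comparison sheets. Per the file headers, each sheet holds a normalized intensity for 2 arrays, a coefficient of variation between spots as a percent, the log2 ratio between both arrays and a p-value. The scanner processing, background correction, normalization, listing rule and test behind the deposited p-values are not stated in the sources used. Probe names came from the sheets.

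From these, the log2 of each deposited ratio was taken with no pseudocount (Python 3.11.15, pandas 2.3.3, numpy 2.4.6). A mean change over 3 times of at least 2-fold was counted as changed. The sheets' intensities were brought to the scale of the genotype's 4 h sheet by 1 factor each, from 0.821 to 1.24, which made the shared 0 h values equal. Full values were given for the 5 members with the highest mean intensity and, for each genotype's response and for their difference, the 5 highest and 5 lowest. No test was made, since 1 array per group has no replicate; the number of arrays limits the precision. Other scalings, sources, folds, splits and sets of times were tried. Base composition was compared after the data were seen. Sequences are RefSeq's for GRCm38.p6.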

Additional observations from a re-analysis of the deposited data

Results flagged for a closer look

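In 6 members every treated ATM+/+ array lay above 0 h and every treated ATM-/- array below it in the ratio table. This held for 25 probes of the whole ratio table (5.8%) and for 17 of the 233 other named ones (7.3%). The mean ATM+/+ minus ATM-/- log2 ratio was 1.67 for miR-410, 1.40 for miR-379, 1.24 for miR-382, 1.14 for miR-337-3p, 1.11 for miR-376a and 0.67 for miR-409-3p. The difference was not tested, because each time has 1 array per genotype. Intensities in ATM-/- cells exist for miR-382 and miR-409-3p alone. From the sheets the mean difference was 0.76 for miR-382 and 1.31 for miR-409-3p. Probes unlisted in ATM-/- cells had median responses of -0.21 for members and -0.14 for other named probes. Some ATM-/- values were close to 0, among them -0.01 for miR-382 at 4 h and -0.07 for miR-410 at 24 h. On the ATM-/- sheets miR-382 had a positive log2 ratio at 4 h, 0.26 in the authors' deposited table, so its opposite direction at that time depends on the file used.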

How the results depend on the processing

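The members' median response in ATM+/+ cells, 0.24, kept its sign under every alternative run. It was 0.12 after quantile normalization, 0.15 from the sheets and 0.17 for 24 h against 8 h. The ATM-/- median, -0.10, was -0.010 after quantile normalization, -0.018 without the 4 h array, 0.086 for members on all 3 sheets and 0.16 for 24 h against 8 h, so its sign is not settled. The median difference, 0.37, was 0.25 after centring, 0.17 after quantile normalization, 0.25 from the sheets, 0.17 without the 4 h array, 0.43 without the 24 h array and 0.11 for 24 h against 8 h. The count of 2 members at least 2-fold higher in ATM+/+ cells became 4 without the 8 h array, 8 at 1.5-fold and 0 at 3-fold. On the ATM+/+ sheets 3 of 45 member probes were at least 2-fold higher. These were miR-337-3p, miR-495 and miR-544, the last listed at 4 h alone. The 1 lower member became 0 after quantile normalization, without the 4 h array and at 3-fold. In ATM-/- cells the 2 higher became 0 on the sheets, 1 without the 8 h array and 1 at 3-fold, and the 0 lower became 1 at 1.5-fold. The genotype level difference of 0.60 was -0.42, -0.34 and -0.68 under the other scalings and 0.34 at 0 h alone. Leaving out miR-485 and miR-494, chosen after seeing the data, could not move either median, since 1 of them lies on each side of it. The bright minus dim difference stayed above 0, from 0.04 to 0.30 in ATM+/+ cells and from 0.04 to 0.28 in ATM-/- cells. Of 664 values of single members under these settings, 605 moved by less than their SD over times (those without 1 time do so by construction) and none that had passed 2-fold changed sign; the cause of the other 59 shifts was not tested. No paired analysis was possible because each group has 1 array.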

Other observations

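Of the miRNA genes that RefSeq (GRCm38.p6) places between Mir770 and Mir410 and whose numbers are not in the member list, 1 was on the sheets, Mir882, which lies between miR-370 and miR-379 in the gene order. The log2 ratios of miR-882 in ATM+/+ cells were -2.64, -1.22 and -1.18 at 4, 8 and 24 h (mean -1.68 ± 0.83, SD over 3 times), and its intensities 329.1, 72.4, 129 and 113 over the 4 arrays. In ATM-/- cells they were -0.58, 0.53 and -1.60 (mean -0.55 ± 1.06), with intensities of 108, 55.3, 89.5 and 30.3. Like miR-494, it was lowest at 4 h in ATM+/+ cells and at 24 h in ATM-/- cells.

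Of the 6 star strands of the cluster on the sheets, miR-299* had log2 ratios of 1.15, 0.80 and 0.42 in ATM+/+ cells in the authors' deposited table. There miR-431* stood at -0.21, -0.65 and -0.86 in ATM+/+ cells and at 0.55, 0.16 and 0.66 in ATM-/- cells. The authors' deposited table gave miR-127* log2 ratios of -0.03, -0.07 and -0.24 in ATM+/+ cells.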
